A study of Mus musculus with 12 samples.

Results

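Cortex of Med13l null (KO) mouse embryos was compared with cortex of Med13l heterozygous (Het) embryos at E13.5. The comparison takes in 3 KO and 3 Het libraries, chosen by their genotype labels, which are 6 of the 9 bulk RNA-seq libraries and of the 12 samples in all. The 3 wild-type (WT) bulk libraries entered the same statistical fit and are given last where they help. KO embryos carry the null mutation on both alleles of Med13l and Het embryos on 1 allele, so both groups lack at least 1 functional copy, and all embryos came from crosses of Het animals. The labels name 3 brain tissues per genotype and do not say how the null allele was made. P-values therefore measure the spread between these tissues only.

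Mediator is the large complex that carries signals from transcription factors bound at enhancers to RNA polymerase II. Its kinase module, built from Cdk8 or Cdk19, cyclin C, Med12 or Med12l and Med13 or Med13l, docks on the complex reversibly. Med13 and its paralog Med13l are the subunits through which the module attaches, and loss of a functional MED13L allele in humans causes a developmental disorder with intellectual disability. At the stage studied here the cortical wall holds dividing radial glia and intermediate progenitors and is laying down its first projection neurons, while vessels, microglia and the overlying meninges supply other cell types.

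Library totals ran from 37909377 to 44838473 counts in the 6 KO and Het libraries. The table lists 55335 genes, of which 18844 were tested, and 25568 stood at 0 in all 6. Expression is given as CPM, the count scaled to library size, a level that is not corrected for gene length. No pair of libraries was a copy of the other. The most alike pair was KO 3 with Het 3, of different genotypes, and these carry the letter F in the sample descriptions while the other 4 carry D; the labels do not say what the letter means. By Y-linked and Xist counts, KO 1, KO 2 and Het 2 came from males and KO 3, Het 1 and Het 3 from females.

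One library stood apart. The first principal component of the 6 libraries held 43.3% of the variance and placed Het 1 at 91.1, while the other 5 lay between -54.9 and 11. Cortex markers, picked here with their values known, differed in it as well. Emx1, a transcription factor of the dorsal telencephalon, had 63.1, 44.9 and 51.7 CPM in KO and 19.8, 62.8 and 43.4 CPM in Het. Tbr1, which marks early cortical projection neurons, had 229, 228 and 360 CPM in KO and 52.8, 339 and 347 CPM in Het. Tcf7l2, a transcription factor of the thalamus, had 16.1, 63.3 and 19.5 CPM in KO against 657, 17.2 and 22.4 CPM in Het. Emx1 and Tbr1 were thus present in all 6 libraries and lowest in Het 1, where Tcf7l2 was far above the rest. Het 1 is kept in the main fit, and results are given without it where it moves them.

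Med13l transcript showed no detectable difference between the genotypes. Med13l (ENSMUSG00000018076, GRCm38 chromosome 5, 118560679 to 118765438) had 130, 156 and 163 CPM in KO, against 141, 156 and 160 CPM in Het and 145, 146 and 116 CPM in WT. The KO and Het libraries overlapped, with a log2 fold change of -0.03 (SE 0.12, 95% interval -0.30 to 0.24, edgeR adjusted p = 0.948). Counts summed over all exons cannot reveal what the mutation removes, and so they do not check the genotypes. The directions below rest on the labels alone.

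The partners of Med13l in the kinase module had overlapping levels too. Med13, its paralog, had 151, 173 and 183 CPM in KO and 159, 174 and 203 CPM in Het. Med12, the subunit that activates the kinase, had 145, 159 and 153 CPM in KO and 156, 161 and 157 CPM in Het. The fold changes of all 7 module genes lay between -0.08 and 0.06 on the log2 scale, and 0 of 7 had an unadjusted p under 0.05, where 7.74% of all tested genes did. The core of Mediator showed likewise 0 of 26 genes under that threshold and a median log2 fold change of 0.01, beside -0.01 for all tested genes. Its member with the smallest p was Med24, at 120, 144 and 136 CPM in KO and 152, 150 and 142 CPM in Het (log2 fold change -0.15, edgeR adjusted p = 0.61).

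Across all tested genes, 1 passed the edgeR quasi-likelihood test at an adjusted p under 0.05, which is 0.00531% of them, and it fell in KO. The next smallest adjusted p was 0.607. At an unadjusted p under 0.05 there were 1459 genes, 911 higher in KO (4.83% of the tested genes) and 548 lower (2.91%). Every KO library lay above every Het library for 1141 genes (6.05%) and below for 951 genes (5.05%). Fold changes were centred near 0, with 49.0% of genes positive. Without Het 1, no gene passed the edgeR test, 47.4% of the 19254 genes then tested were positive, and 616 higher (3.2%) and 245 lower (1.27%) had an unadjusted p under 0.05. The count at that threshold also hung on other single libraries: it was 510 without KO 1, 2193 without KO 3 and 2903 without Het 2, and in the last of these 1652 of the genes were lower in KO. DESeq2 called 22 genes in the full set, 18 higher and 4 lower.

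**Figure D1:**
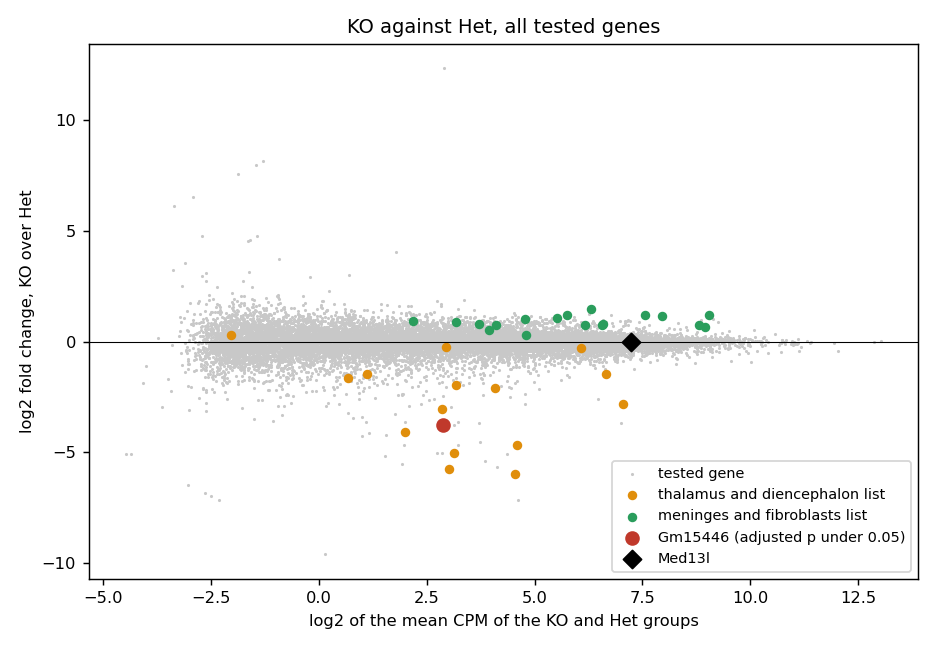
Log2 fold change, KO over Het, of each of the 18844 tested genes against the log2 of its mean CPM over both groups. Gm15446 (red) is the 1 gene with an adjusted p under 0.05, Med13l (black) lies at -0.03, genes of the thalamus and diencephalon list (orange) reach down to -5.96 and those of the meninges and fibroblasts list (green) lie between 0.31 and 1.46.

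The gene that fell was Gm15446 (ENSMUSG00000090015), a protein-coding gene on the plus strand of chromosome 5, from 109923400 to 109943936 on GRCm38. It had 0.957, 0.572 and 1.48 CPM in KO, against 11.3, 18.4 and 11.6 CPM in Het and 18.1, 19 and 20.1 CPM in WT. These levels rest on 43, 22 and 63 counts in the KO libraries and on 495, 793 and 436 counts in the Het libraries. All KO libraries lay far below all Het and WT libraries, while the Het and WT ranges overlapped at 18.1 to 18.4 CPM because of Het 2. Gm15446 fell by 3.77 on the log2 scale in KO (SE 0.34, 95% interval -4.55 to -2.99, edgeR adjusted p = 0.0407), a 13.6-fold lower level by that estimate. The difference in log2 CPM was -4.20 within letter D and -2.94 within letter F, and -4.55 among males and -2.92 among females, with 1 library per genotype in letter F, 1 male Het library and 1 female KO library.

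The size of this difference held under all 22 alternatives tried for it, but the call did not. Over these settings the log2 fold change ran from -4.16 to -3.50, and 6 of them called the gene, among them DESeq2 (adjusted p = 3.21e-28). By edgeR the adjusted p was 0.544 without KO 1, 0.0919 without KO 2 and 0.0407 without KO 3, so the call stayed in the last. Without Het 1, Het 2 and Het 3 it was 0.0547, 0.0798 and 0.146. It was 0.189, 0.208 and 0.226 without WT 1, WT 2 and WT 3, and 0.752 in a fit of the KO and Het libraries alone. Among 15566 genes with a mean of at least 1 CPM in KO or in Het, 22 had a lower fold change than Gm15446, of which 21 were highest in Het 1. Without Het 1 only 2 did.

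The neighbourhood of Gm15446 showed no difference of that size. Within 500 kb of it there were 24 other tested genes, with log2 fold changes from -0.48 to 0.71, and 4 had an unadjusted p under 0.05, beside 7.74% of all genes. Zfp932, a zinc finger gene that starts just downstream (chromosome 5, 109996521 to 110010411), had 21.7, 24.1 and 24.8 CPM in KO, against 28.6, 29.3 and 30.8 CPM in Het. All its KO libraries lay below all its Het libraries, with a log2 fold change of -0.33 (SE 0.11, edgeR adjusted p = 0.607). The other 3, named for that p with their values known, were the zinc finger gene Zfp605 (-0.38) and the mitotic checkpoint gene Chfr (-0.27) on the lower side and Pole, which encodes the catalytic subunit of DNA polymerase epsilon (0.49), on the higher side. None of these passed the edgeR test.

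Gm15446 and Med13l start 8.64 Mb apart on chromosome 5, so the tested genes of that chromosome were set out by distance from Med13l. The share with an unadjusted p under 0.05 was 0 of 8 genes within 1 Mb, 9.26% of 162 genes between 1 and 5 Mb, 7.76% of 116 genes between 5 and 10 Mb, 8.7% of 253 genes between 10 and 20 Mb and 6.93% of 693 genes beyond, beside 7.74% of all tested genes. Genes close to Med13l thus did not stand out by this share, which pools both directions. Between 5 and 10 Mb, where Gm15446 lies, 6.03% were lower and 1.72% higher in KO. Between 1 and 5 Mb 3.7% were lower and 5.56% higher. Of all tested genes 2.91% were lower and 4.83% higher. Sh2b3, an adaptor that restrains cytokine receptor signalling, was the gene with the smallest p within 10 Mb after Gm15446, at 30.7, 26.1 and 20.5 CPM in KO against 17.7, 17.8 and 16.6 CPM in Het (log2 fold change 0.57, SE 0.15, edgeR adjusted p = 0.607).

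**Figure D2:**
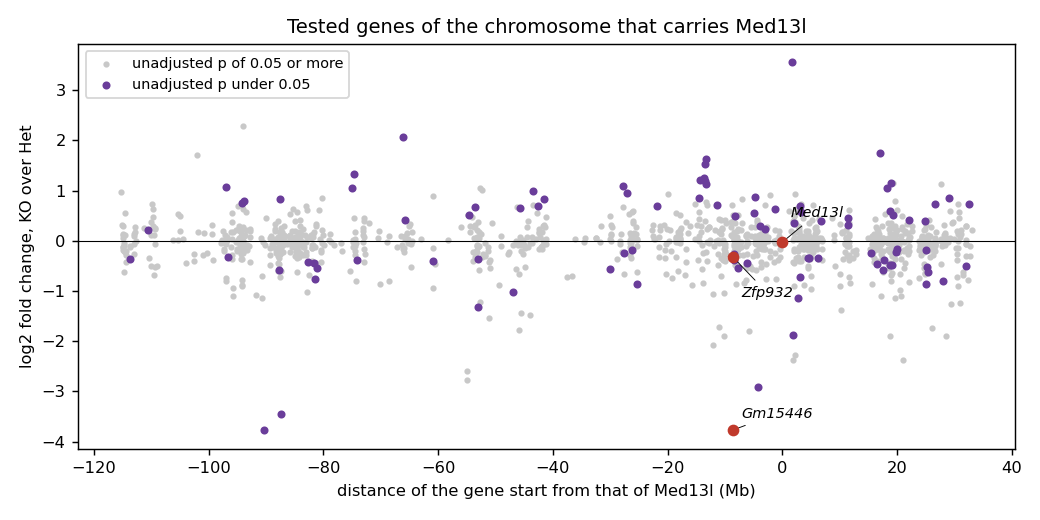
Log2 fold change, KO over Het, of the tested genes of chromosome 5 against the distance of their start from that of Med13l in Mb. Purple points have an unadjusted p under 0.05, red points are the 3 labelled genes, and Gm15446 at -3.77 lies far below its neighbour Zfp932 at -0.33.

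The 12 genes higher in KO with the smallest p, among those at 1 CPM or more, did not pass the edgeR test (adjusted p = 0.607 each). All 12 had every KO library above every Het library, beside 6.05% of all genes. That follows largely from choosing them by p in these same libraries. Spry4, which curbs signals of growth factor receptors as their feedback inhibitor (chromosome 18, 38586247 to 38601415), had 11.9, 9.95 and 8.21 CPM in KO against 4.22, 4.84 and 4.71 CPM in Het and 6.2, 5.46 and 5.2 CPM in WT. Its log2 fold change was 1.13 (SE 0.18), and the Het libraries were also below all WT libraries. Gxylt2, a xylosyltransferase that extends sugars on Notch receptors (chromosome 6, 100704734 to 100810913), had 15.2, 12.9 and 9.57 CPM in KO and 5.75, 5.32 and 6.21 CPM in Het. The difference was as large as for Spry4, with a log2 fold change of 1.13 (SE 0.21).

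Several of the 12 are known from blood cells or connective tissue. The embryonic globin gene Hbb-y (chromosome 7, 103851749 to 103853216) had 920, 771 and 544 CPM in KO against 400, 399 and 316 CPM in Het. Alox12, the platelet lipoxygenase (chromosome 11, 70241457 to 70255353), had 2.65, 2.81 and 2.06 CPM in KO and 0.936, 1.23 and 1.07 CPM in Het. Itga2b, the platelet integrin subunit (chromosome 11, 102453297 to 102470122), had 5.17, 7.56 and 5.35 CPM in KO and 3.47, 3.22 and 3.04 CPM in Het. Their log2 fold changes were 1.00 (SE 0.20), 1.22 (SE 0.26) and 0.89 (SE 0.20). Col1a1, a chain of type I collagen (chromosome 11, 94936224 to 94953042), had 300, 329 and 153 CPM in KO and 98.5, 116 and 126 CPM in Het. Mrvi1, a target of cGMP signalling in smooth muscle, had 10.2, 9.95 and 5.25 CPM in KO and 3.93, 3.63 and 3.22 CPM in Het, and the log2 fold change of 1.24 (SE 0.28) was the largest of the 12. For both genes KO 3 lay much closer to the Het libraries than KO 1 and KO 2 did.

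A further 4 showed the same order of libraries. Rcsd1, which encodes a protein that binds actin-capping protein, had 34.3, 28.8 and 20.4 CPM in KO and 13.3, 16.1 and 14.3 CPM in Het. Prex2, an exchange factor for Rac, had 19.9, 19.4 and 14 CPM in KO and 9.18, 8.70 and 9.72 CPM in Het. Their log2 fold changes were 0.93 and 0.95. Oaf and Marveld1 had log2 fold changes of 1.10 and 0.69, with Oaf at 17.2, 15.9 and 10.4 CPM in KO and 5.14, 7.75 and 7.43 CPM in Het. KO 3 was the lowest KO library for 11 of the 12 genes, Itga2b being the exception, and for 67.0% of the 1141 genes with every KO library above every Het library. The summed markers of meninges, vessels, macrophages and red cells, given further on, ordered the KO libraries much the same way, and their part in these differences was not tested. DESeq2 called 11 of the 12, from the same counts by which these genes were chosen.

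Among the 12 genes lower in KO with the smallest p, Gm15446 passed the test and the other 11, with log2 fold changes from -1.40 to -0.30, did not (edgeR adjusted p = 0.607 each). Trim17, a ubiquitin ligase gene (chromosome 11, 58954685 to 58973098), had 0.690, 0.780 and 1.01 CPM in KO against 1.62, 2.22 and 2.72 CPM in Het (log2 fold change -1.40, SE 0.29). Unc5d, a receptor for netrins and Flrt proteins on migrating cortical neurons (chromosome 8, 28646717 to 29219636), had 24.2, 27.7 and 32.8 CPM in KO against 41.0, 52.3 and 41.6 CPM in Het. In both genes the KO libraries lay below all Het and all WT libraries, and Unc5d had a log2 fold change of -0.67 (SE 0.15).

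Wnt2b, a Wnt ligand made by the cortical hem (chromosome 3, 104945272 to 104961921), had 8.28, 6.99 and 7.32 CPM in KO against 12.7, 12.4 and 10.6 CPM in Het and 7.88, 9.23 and 10.1 CPM in WT. Here the Het libraries were above all WT libraries, and the KO and WT libraries overlapped. The log2 fold change was -0.66 (SE 0.15). Cdh13, a cadherin anchored to the membrane by a lipid (chromosome 8, 118283733 to 119324921), had 29.9, 41.6 and 48.7 CPM in KO and 64.2, 72.1 and 54.5 CPM in Het. Lrrc55, an auxiliary subunit of a potassium channel, had 9.02, 11.3 and 11.8 CPM in KO and 21.3, 16.4 and 15.5 CPM in Het. Their log2 fold changes were -0.67 (SE 0.18) and -0.73 (SE 0.18).

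The other lower genes ranged from -1.05 to -0.30 on the log2 scale. Pcmtd2 had 53.4, 55.4 and 54.7 CPM in KO and 69.1, 70.1 and 62.1 CPM in Het, a log2 fold change of -0.30 (SE 0.08). Tmem151b, a membrane protein gene, had 55.7, 64.8 and 68.3 CPM in KO and 81.2, 79.7 and 81.7 CPM in Het (-0.36). Ankra2, an ankyrin repeat protein gene, had 28.9, 31.5 and 31.5 CPM in KO and 46.9, 38.3 and 36.9 CPM in Het (-0.41). Dedd2, which encodes a death effector domain protein, and Fam196a had log2 fold changes of -0.45 and -0.79. The processed pseudogene Gm10651 had 0.579, 0.546 and 0.539 CPM in KO and 1.35, 1.06 and 1.04 CPM in Het (-1.05), and counts of such a copy may include reads of its parent gene. All 12 kept a negative fold change without Het 1, and DESeq2 called 2 of the 11, Trim17 and Wnt2b. The genes were chosen by their p in the same libraries, so neither count is independent support.

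**Figure D3:**
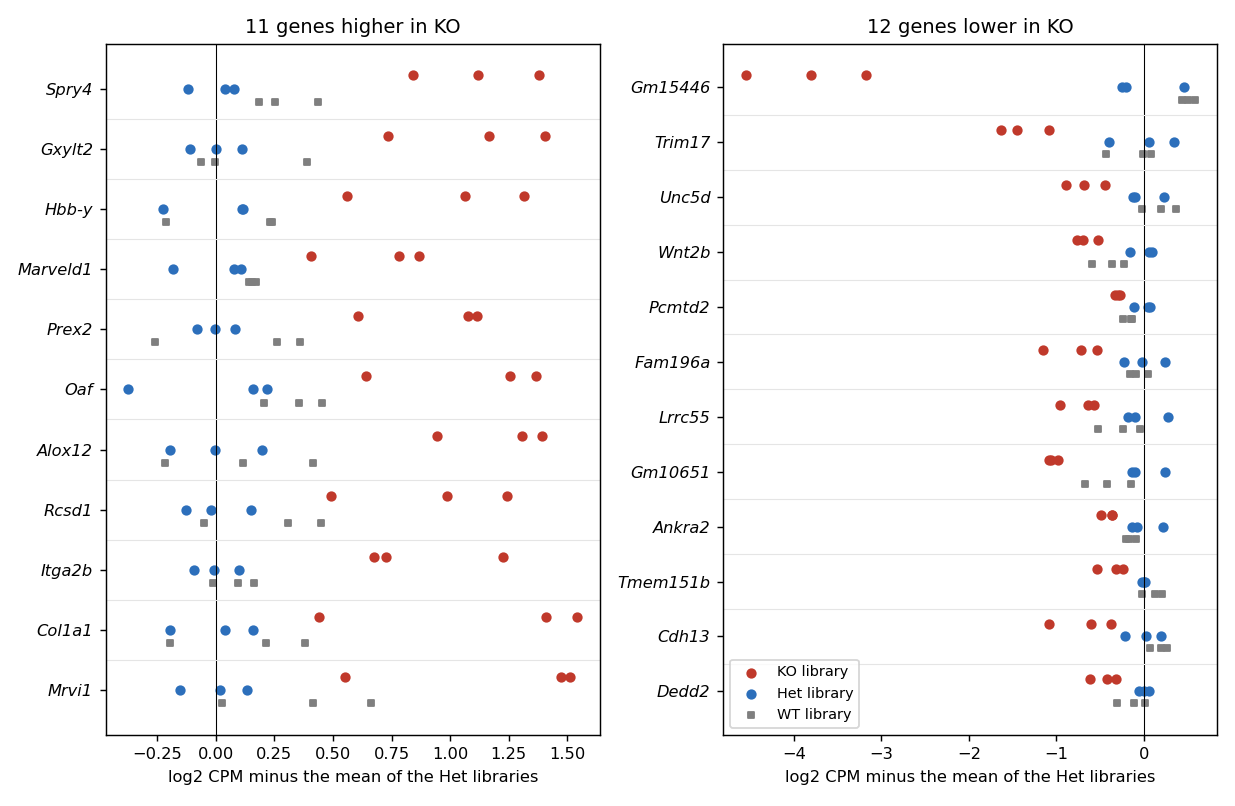
Log2 CPM of each library minus the mean of the 3 Het libraries, for the 11 genes higher (left) and the 12 lower in KO (right) with the smallest p; red points are KO libraries, blue points Het libraries and grey squares WT libraries. The KO points lie apart from the Het points in all 23 rows, which the choice of genes by p in these libraries favours. The left panel has a narrower scale than the right, where Gm15446 reaches below -4.

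Genes of FGF signal feedback, Spry4 among them, tended to be higher in KO. The list holds genes that FGF receptors switch on through the ERK kinase and genes that dampen that path, together with the receptors. Of 16 tested members 5 had an unadjusted p under 0.05 with higher levels in KO, beside 4.83% of all genes, 0 passed the adjusted test, and the median log2 fold change was 0.27. Without Het 1 the median was 0.28, with 4 members higher and 1 lower at an unadjusted p under 0.05, beside 3.2% and 1.27% of all genes. Every KO library lay above every Het library for 6 of the 16, beside 6.05% of all genes, which were the Sprouty genes Spry1, Spry2 and Spry4, the inhibitors Spred2 and Il17rd, and the ERK phosphatase gene Dusp6. The counts of 5 and 6 include Spry4, which was named above for its small p in these same libraries.

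Dusp6 had 43.2, 34.4 and 25.7 CPM in KO and 16.4, 19.5 and 22.3 CPM in Het (log2 fold change 0.83, SE 0.22, edgeR adjusted p = 0.607). Il17rd had 48.7, 48.3 and 44.3 CPM in KO and 30.7, 18.3 and 39.5 CPM in Het. In both, the highest Het library was Het 3, close to the lowest KO library, KO 3. The transcription factor gene Etv4, which FGF induces, had 7.24, 6.65 and 6.12 CPM in KO and 2.81, 1.99 and 6.13 CPM in Het, so that its groups overlapped. The receptors Fgfr1, Fgfr2 and Fgfr3 had log2 fold changes of 0.18, -0.05 and -0.21. Among the KO libraries Dusp6 was lowest in KO 3, as were the 4 summed non-neural marker lists described next. The FGF list itself had its lowest KO sum in KO 1. It summed to 916, 1020 and 1020 CPM in KO and to 735, 952 and 982 CPM in Het. The part of non-neural cells in these values was not tested. Within letter D the list's median difference was 0.40 and within letter F, with 1 library per genotype, 0.05.

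Markers of cells outside the neural lineage were higher in KO than in Het, above all in KO 1 and KO 2. These are 4 lists, for meninges and fibroblasts, for endothelial and mural cells of vessels, for microglia and macrophages, and for erythroid cells. In bulk tissue, more cells of a type and more RNA per cell cannot be told apart. No tested gene of the 4 lists was at 0 in any KO or Het library. The summed level of the 18 meningeal genes was 4080, 3620 and 2010 CPM in KO against 1360, 2000 and 1700 CPM in Het. That of the 17 vascular genes was 1280, 1100 and 735 CPM in KO against 638, 734 and 674 CPM in Het. In both sums KO 3 lay just above the highest Het library, Het 2, and KO 1 and KO 2 far above it. The WT libraries summed to 1410 to 2350 CPM on the meningeal list and 579 to 899 CPM on the vascular list, so KO 3 was within the WT range on both.

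All 18 meningeal genes had a positive fold change, with a median of 0.85 on the log2 scale. Of these, 14 had an unadjusted p under 0.05 and 9 had no overlap between the groups, beside 4.83% and 6.05% of all genes, while 0 passed the adjusted test. Lum, a collagen-binding proteoglycan, had 162, 128 and 59.8 CPM in KO and 30.5, 51.1 and 45.7 CPM in Het (log2 fold change 1.46, SE 0.36, edgeR adjusted p = 0.607). Col3a1, a fibrillar collagen, had 994, 810 and 407 CPM in KO and 231, 395 and 323 CPM in Het, also without overlap. The meningeal transcription factor gene Foxc1 had 28.1, 23.7 and 13.7 CPM in KO and 8.77, 15.5 and 14.5 CPM in Het, where KO 3 fell within the Het range. The median of the list was 0.73 without Het 1 and 0.65 without KO 1. It was 1.10 within letter D and 0.28 within letter F.

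All 17 vascular genes were positive as well, with a median of 0.69, and 12 had an unadjusted p under 0.05, beside 4.83% of all genes. Without Het 1 there were 6, beside 3.2%. Pdgfrb, the receptor that recruits pericytes, had 100, 96.2 and 57.2 CPM in KO and 54.4, 46.9 and 50.7 CPM in Het (log2 fold change 0.74, SE 0.21, edgeR adjusted p = 0.607). Esam, an adhesion molecule of endothelial junctions, had 39.0, 37.0 and 20.5 CPM in KO and 16.6, 20.9 and 18 CPM in Het. Pecam1, which marks all endothelium, had 52.0, 44.0 and 47.9 CPM in KO and 31.8, 41.3 and 44.6 CPM in Het. Groups overlapped for Esam and Pecam1 but not for Pdgfrb. The median was 0.63 without Het 1 and 0.47 without KO 1, and it was 0.90 within letter D and 0.13 within letter F.

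Microglial and macrophage genes summed to 147, 139 and 87.8 CPM in KO against 74.9, 79.2 and 82.6 CPM in Het, again without overlap. The WT libraries summed to 103, 97 and 70.7 CPM, a range that held every Het library and KO 3. Of 14 tested genes 12 were positive, 9 of these with an unadjusted p under 0.05, beside 4.83% of all genes, and the median was 0.59. Without Het 1 there were 5, beside 3.2%. Ptprc, the CD45 antigen of white blood cells, had 2.16, 2.65 and 2.49 CPM in KO and 1.35, 1.04 and 0.852 CPM in Het (log2 fold change 1.17, SE 0.29, edgeR adjusted p = 0.607). Lyz2, lysozyme of macrophages, had 6.72, 6.68 and 4.88 CPM in KO and 3.29, 2.45 and 3.97 CPM in Het. In WT, Ptprc had 2.74, 1.57 and 1.75 CPM and Lyz2 had 4.51, 4.93 and 4.52 CPM. For both genes the Het libraries lay below all WT libraries, and KO overlapped with WT. P2ry12, a receptor of microglia, had a negative fold change, with 3.21, 2.75 and 2.74 CPM in KO and 3.93, 3.10 and 4.63 CPM in Het. Its groups overlapped, as did those of Aif1, the other negative member.

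Erythroid genes summed to 4270, 4680 and 3150 CPM in KO and to 2650, 2980 and 2690 CPM in Het. The WT libraries summed to 3070, 2150 and 2780 CPM, a range that held every Het library and ended just below KO 3. All 14 tested members were positive, with a median of 0.51, and 6 had an unadjusted p under 0.05, beside 4.83% of all genes. Without Het 1, 13 were positive and 5 were higher at that threshold, beside 3.2%. The median was 0.47 without Het 1, and it was 0.76 within letter D and 0.17 within letter F. Besides Hbb-y, the embryonic alpha-type globin gene Hba-x had 119, 124 and 70.0 CPM in KO and 68.0, 60.5 and 45.1 CPM in Het. Hba-a1, an alpha globin of fetal and adult blood, had 1420, 1430 and 1010 CPM in KO and 858, 920 and 881 CPM in Het (log2 fold change 0.54, SE 0.15, edgeR adjusted p = 0.607). The globin genes have near-identical copies, and how reads shared between them were counted is not given in the sources used here.

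**Figure D4:**
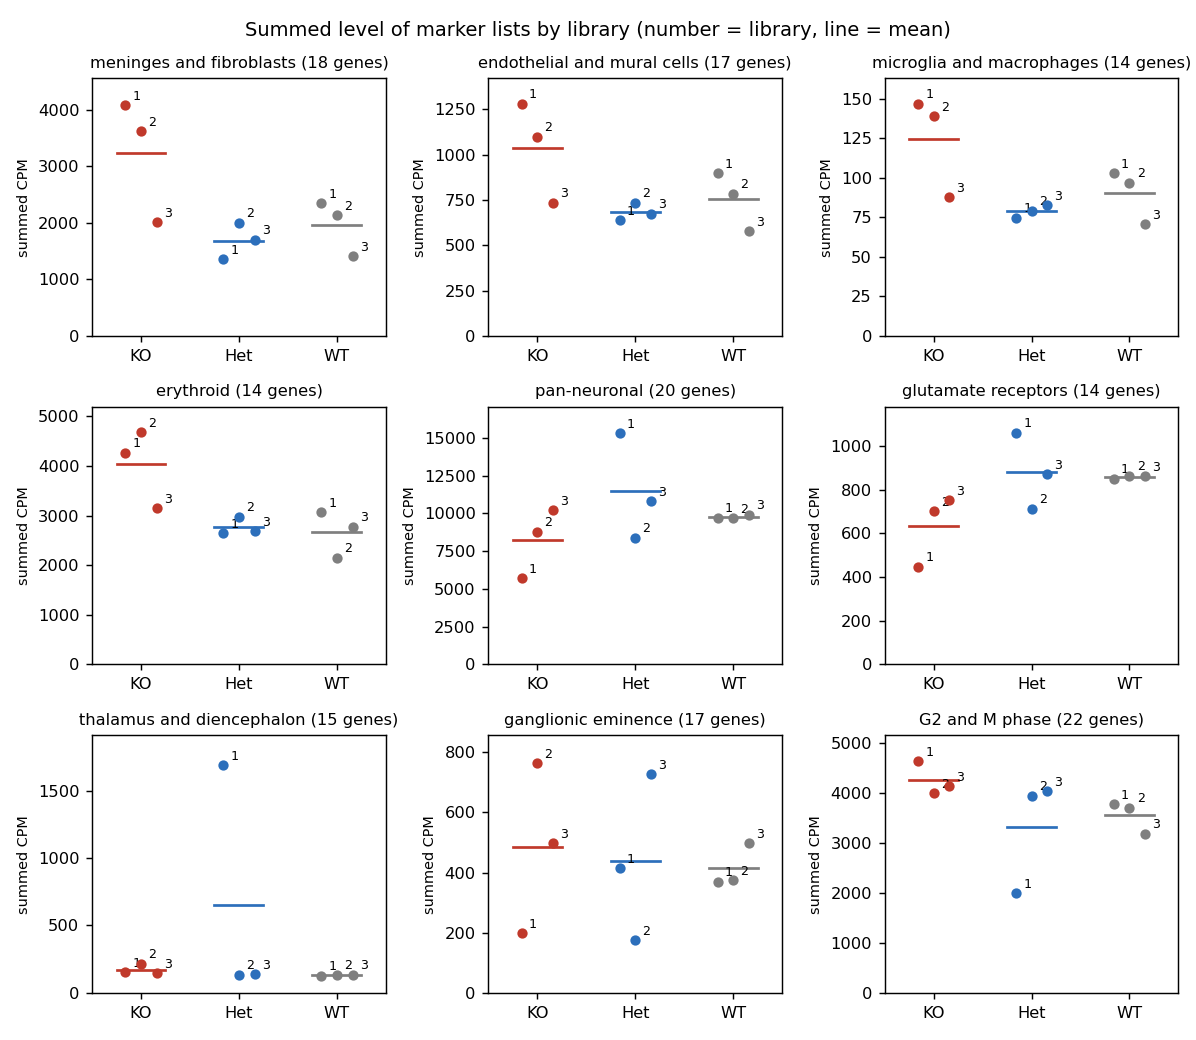
Summed CPM of the tested members of 9 gene lists in each library, with the library number beside each point and a line at the group mean, for KO (red), Het (blue) and WT (grey), on axes that start at 0. On the 4 lists of cells outside the neural lineage every KO library is above every Het library, by little for KO 3, and on the thalamus and diencephalon list Het 1 lies at 1690 CPM with all other KO and Het libraries at or below 217 CPM.

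Genes of neurons had negative fold changes that shrank when KO 1 and Het 1 were left out. The 20 pan-neuronal genes summed to 5690, 8790 and 10200 CPM in KO and to 15300, 8390 and 10800 CPM in Het, so that KO 2 and KO 3 lay within the Het range. All 20 had a negative fold change, with a median of -0.54, yet 0 had an unadjusted p under 0.05, beside 2.91% of all genes. Myt1l, a transcription factor that keeps neuronal identity, had 60.5, 118 and 150 CPM in KO and 212, 137 and 159 CPM in Het (log2 fold change -0.63, SE 0.29). The median was -0.21 without Het 1, -0.34 without KO 1 and 0.03 without both. It was -0.79 within letter D and -0.07 within letter F.

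Synapse genes gave a median of -0.51, with 23 of 24 negative and 5 at an unadjusted p under 0.05, beside 2.91% of all genes. Without Het 1 there were 2, beside 1.27%. The median was -0.23 without Het 1 and -0.01 without Het 1 and KO 1. Nlgn1, a neuroligin of excitatory synapses, was the member without overlap, at 16.6, 20.2 and 22.3 CPM in KO and 37.4, 27.1 and 24.9 CPM in Het (log2 fold change -0.60, SE 0.18, edgeR adjusted p = 0.607). Syt4, a synaptotagmin of secretory vesicles, had 30.4, 58.0 and 76.2 CPM in KO and 142, 75.9 and 89.3 CPM in Het, and KO 3 overlapped with Het 2.

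All 14 glutamate receptor genes were negative, with a median of -0.66, and 4 had an unadjusted p under 0.05, beside 2.91% of all genes. Without Het 1 there was 1, beside 1.27%. Those 4 were the AMPA receptor genes Gria1, Gria2 and Gria3 and the kainate receptor gene Grik2. Gria2, which sets the calcium permeability of AMPA receptors, had 147, 171 and 227 CPM in KO and 260, 218 and 235 CPM in Het. Gria3 had 16.6, 18 and 25 CPM in KO and 32.5, 23.8 and 27.5 CPM in Het, with log2 fold changes of -0.39 for Gria2 and -0.49 for Gria3. KO 3 reached into the Het range for both. The median was -0.19 without Het 1, -0.44 without KO 1 and 0.01 without both. The 16 voltage-gated channel genes, all negative, had a median of -0.54, which was -0.20 without Het 1 and 0.04 without Het 1 and KO 1.

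Layer-specific genes of projection neurons included single members that were lower in KO in every library. Nr4a2, a nuclear receptor of deep-layer and subplate neurons, had 28.7, 20.8 and 29.6 CPM in KO and 40.4, 45.4 and 35.8 CPM in Het (log2 fold change -0.62, SE 0.17, edgeR adjusted p = 0.607). Ldb2, a cofactor of LIM homeodomain factors, had 17.6, 20 and 17.3 CPM in KO and 27.6, 22.4 and 22 CPM in Het. The deep-layer list had 11 of 15 negative members, 3 with an unadjusted p under 0.05, beside 2.91% of all genes, and a median of -0.22. Sox5 and Fezf2, which specify deep-layer neurons, overlapped between the groups, with log2 fold changes of -0.22 and 0.12. Without Het 1 the median was -0.28, with 7 of 15 members lower at an unadjusted p under 0.05, where 1.27% of all genes were. The median was -0.09 within letter D and -0.12 within letter F, and -0.56 among males and 0.11 among females. Tbr1, Neurod6 and Neurod2 are also on the cortex identity list given further on, so the counts of these lists are not separate observations.

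On the upper-layer list 8 of 12 genes were negative (median -0.29). Unc5d was the 1 member with an unadjusted p under 0.05, lower in KO, beside 2.91% of all genes. Without Het 1 the median was -0.25 with 11 negative. At that threshold 4 were then lower and 1 higher, beside 1.27% and 3.2% of all genes. Plxnd1, a semaphorin receptor of that list that vessels also make, had a positive fold change, at 216, 221 and 180 CPM in KO and 68.5, 177 and 168 CPM in Het (log2 fold change 0.58, SE 0.30, edgeR adjusted p = 0.609). The lower end of its Het values was Het 1, and without it the log2 fold change was 0.25.

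Progenitor and cortex identity genes turned on the same library. Of 14 genes of intermediate progenitors 10 were negative, with a median of -0.06. Of these 2 had an unadjusted p under 0.05, beside 2.91% of all genes. Without Het 1 the median was -0.28 with 12 negative, 4 of them at that threshold, beside 1.27% of all genes. Eomes, their defining transcription factor, had 247, 207 and 287 CPM in KO and 82.4, 388 and 282 CPM in Het. Elavl2, an RNA-binding protein gene of new neurons, was the member without overlap, at 128, 143 and 166 CPM in KO and 168, 196 and 180 CPM in Het (log2 fold change -0.32, SE 0.11, edgeR adjusted p = 0.607). The 10 cortex identity genes had a median of 0.03 with 5 negative, but without Het 1 a median of -0.31 with 10 negative, 5 of them at an unadjusted p under 0.05, beside 1.27% of all genes. Those 10 include Tbr1 and Neurod6, the last at 310, 278 and 405 CPM in KO and 96.8, 604 and 417 CPM in Het. The list summed to 3070, 2780 and 3310 CPM in KO and to 1450, 4300 and 3310 CPM in Het. KO 3 and Het 3 were thus alike, and Het 2 was the highest library. The cortex identity median was 0.25 within letter D and 0.02 within letter F, with 1 library per genotype in the latter. For intermediate progenitors these medians were -0.10 and 0.06. Radial glia genes had a median of 0.14, or -0.04 without Het 1, where 14 of 20 were negative. At an unadjusted p under 0.05, 1 was higher in KO and 1 lower, beside 4.83% and 2.91% of all genes. The higher one, Hopx, a marker of radial glia, had 10.3, 5.43 and 8.04 CPM in KO and 3.97, 3.91 and 5.46 CPM in Het. Its Het libraries also lay below all WT libraries. The lower one, Tnc, had 17.8, 37.1 and 30.7 CPM in KO and 103, 31.9 and 40.4 CPM in Het.

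Regional markers separated single libraries rather than genotypes. The 15 tested genes of the thalamus and diencephalon summed to 155, 217 and 147 CPM in KO and 1690, 136 and 138 CPM in Het. Pou4f1, a transcription factor of the habenula and sensory ganglia, had 0.579, 1.12 and 0.516 CPM in KO and 136, 0.717 and 0.559 CPM in Het, and it had a log2 fold change of -5.96, or of 0.20 with Het 1 left out. The list's median was -2.07, and 0.40 without Het 1. Of the 10 Cajal-Retzius genes, the transcription factor gene Lhx1 likewise had 119 CPM in Het 1, against 8.02 to 10.2 CPM in the other 5 libraries. Reln, which Cajal-Retzius cells secrete to guide neuronal migration, had 190, 212 and 212 CPM in KO and 300, 235 and 231 CPM in Het (log2 fold change -0.32, SE 0.11, edgeR adjusted p = 0.607). The KO libraries of Reln lay below the Het libraries also without Het 1, with a log2 fold change of -0.19.

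Genes of the ganglionic eminence, where interneurons arise, summed to 198, 763 and 498 CPM in KO and to 414, 176 and 726 CPM in Het. Nkx2-1, which defines its medial part, had 0.334, 41.5 and 6.54 CPM in KO and 1.48, 0.185 and 11.4 CPM in Het. The high libraries, KO 2 and Het 3, belong to different genotypes, and the log2 fold change of 1.89 (SE 1.55) was -0.34 without KO 2. Dlx1, a factor of interneuron precursors, had 28.8, 176 and 112 CPM in KO and 8.72, 14.4 and 184 CPM in Het. Of the 17 genes 0 had an unadjusted p under 0.05, beside 7.74% of all genes.

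Cell cycle genes were all higher in KO by their fold change, and that difference shrank without Het 1. The 22 genes of the G2 and M phases summed to 4630, 3990 and 4130 CPM in KO and to 1990, 3940 and 4030 CPM in Het. KO 2 and KO 3 were thus close to Het 2 and Het 3, and the median of 0.37 was 0.12 without Het 1. The 22 genes of S phase gave a median of 0.36, or 0.11 without Het 1. Mcm3, a subunit of the replicative helicase, had 230, 197 and 191 CPM in KO and 87.2, 176 and 176 CPM in Het (log2 fold change 0.50, or 0.23 without Het 1). Its groups did not overlap, yet 0 of the 44 genes of both lists had an unadjusted p under 0.05, beside 7.74% of all genes.

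In the Notch pathway 3 of 18 genes had an unadjusted p under 0.05, all higher in KO and all without overlap, beside 4.83% and 6.05% of all genes. Heyl, a Notch target of mural cells, had 39.0, 34.1 and 21.2 CPM in KO and 16.4, 16 and 17.9 CPM in Het (log2 fold change 0.91, SE 0.27, edgeR adjusted p = 0.607). Lfng, a sugar transferase that tunes Notch receptors in progenitors, had 39.8, 35.8 and 33.9 CPM in KO and 23.4, 30.9 and 28.1 CPM in Het. The remaining 1, the receptor gene Notch3, is also on the vascular list. Both lists share it, and the vascular sums stand above; the part of mural cells in the values of Heyl and Notch3 was not tested.

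In the Hedgehog pathway the signal transducer gene Smo had 172, 155 and 144 CPM in KO and 98.2, 143 and 130 CPM in Het (log2 fold change 0.34, or 0.20 without Het 1, edgeR adjusted p = 0.607). Among retinoic acid genes, Stra6, a receptor for the retinol carrier, had 26.3, 27.0 and 18.4 CPM in KO and 12.7, 16 and 17.7 CPM in Het. Cyp26b1, which degrades retinoic acid, had 2.63, 1.56 and 2.51 CPM in KO, 17.0, 2.13 and 4.82 CPM in Het and 8.89, 11.7 and 12.2 CPM in WT, so that KO lay below WT throughout and overlapped with Het. Tnfrsf19, a Wnt target, had 261, 216 and 184 CPM in KO and 107, 172 and 158 CPM in Het. Lgr5, of the same list, went the other way, at 0.267, 0.572 and 0.422 CPM in KO and 3.88, 0.417 and 0.879 CPM in Het. Its log2 fold change was -2.04, or -0.63 without Het 1. Of the 16 Wnt targets 9 were positive and 7 negative, with a median of 0.035 (0.31 without Het 1). At an unadjusted p under 0.05, 2 were higher and 1 lower, beside 4.83% and 2.91% of all genes. Mest, an imprinted gene, had 402, 416 and 360 CPM in KO and 228, 204 and 360 CPM in Het, KO 3 and Het 3 being nearly equal. The retinoic acid list had a median of 0.24. The median was 0.17 for the Hedgehog list (0.09 without Het 1) and -0.10 for the imprinted list (0.08 without Het 1).

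Lists of axon guidance, the cortical hem and cell stress had medians from -0.08 to 0.22 in the main fit. Of 30 axon guidance genes Unc5d alone had an unadjusted p under 0.05, lower in KO, beside 2.91% of all genes. The list's median was -0.08, or -0.29 without KO 3. Bmp4, a signal of the dorsal midline and of meninges, had 10.6, 10.3 and 4.99 CPM in KO and 4.22, 5.11 and 4.66 CPM in Het (log2 fold change 0.89, edgeR adjusted p = 0.607). Egr1, an immediate early gene that ERK induces, had 14.6, 13.9 and 5.63 CPM in KO and 6.74, 4.19 and 4.66 CPM in Het. Slc2a1, the glucose transporter of brain endothelium, had 150, 128 and 94.7 CPM in KO and 82.3, 97.3 and 86.5 CPM in Het. In these 3 genes KO 3 was within the Het range. The cortical hem and choroid plexus list had 3 of 16 members higher and 1 lower at an unadjusted p under 0.05, beside 4.83% and 2.91% of all genes, and a median of 0.02. The median was 0.22 for immediate early genes (0.04 without Het 1) and 0.15 for glycolysis and hypoxia (0.06 without Het 1). The BCL2 family, which decides on cell death, had a median of -0.04 (-0.02 without Het 1), and genes of the centrosome and spindle linked to microcephaly 0.22 (0.07 without Het 1).

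Growth, stress and metabolic lists differed little. The 40 ribosomal protein genes had a median of 0.10, and 0.00 without Het 1. The 13 protein-coding mitochondrial genes had a median of -0.07 with all 13 negative (-0.04 without Het 1), and 22 cholesterol synthesis genes one of -0.10 (-0.03 without Het 1). Hsd17b7, an enzyme of that path, had 19.5, 25.8 and 20.6 CPM in KO, 29.4, 27.5 and 28.0 CPM in Het and 19.5, 20.1 and 21.1 CPM in WT. In this gene Het stood above both other genotypes. Of 15 tested p53 targets 1 had an unadjusted p under 0.05, the pro-apoptotic gene Pmaip1, higher in KO, beside 4.83% of all genes. It had 2.40, 2.91 and 2.32 CPM in KO and 1.12, 1.41 and 1.68 CPM in Het (log2 fold change 0.86, SE 0.37, edgeR adjusted p = 0.607). Chromatin regulators that cause neurodevelopmental disorders had a median of -0.07, and 0 of 30 had an unadjusted p under 0.05, beside 7.74% of all genes.

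**Figure D5:**
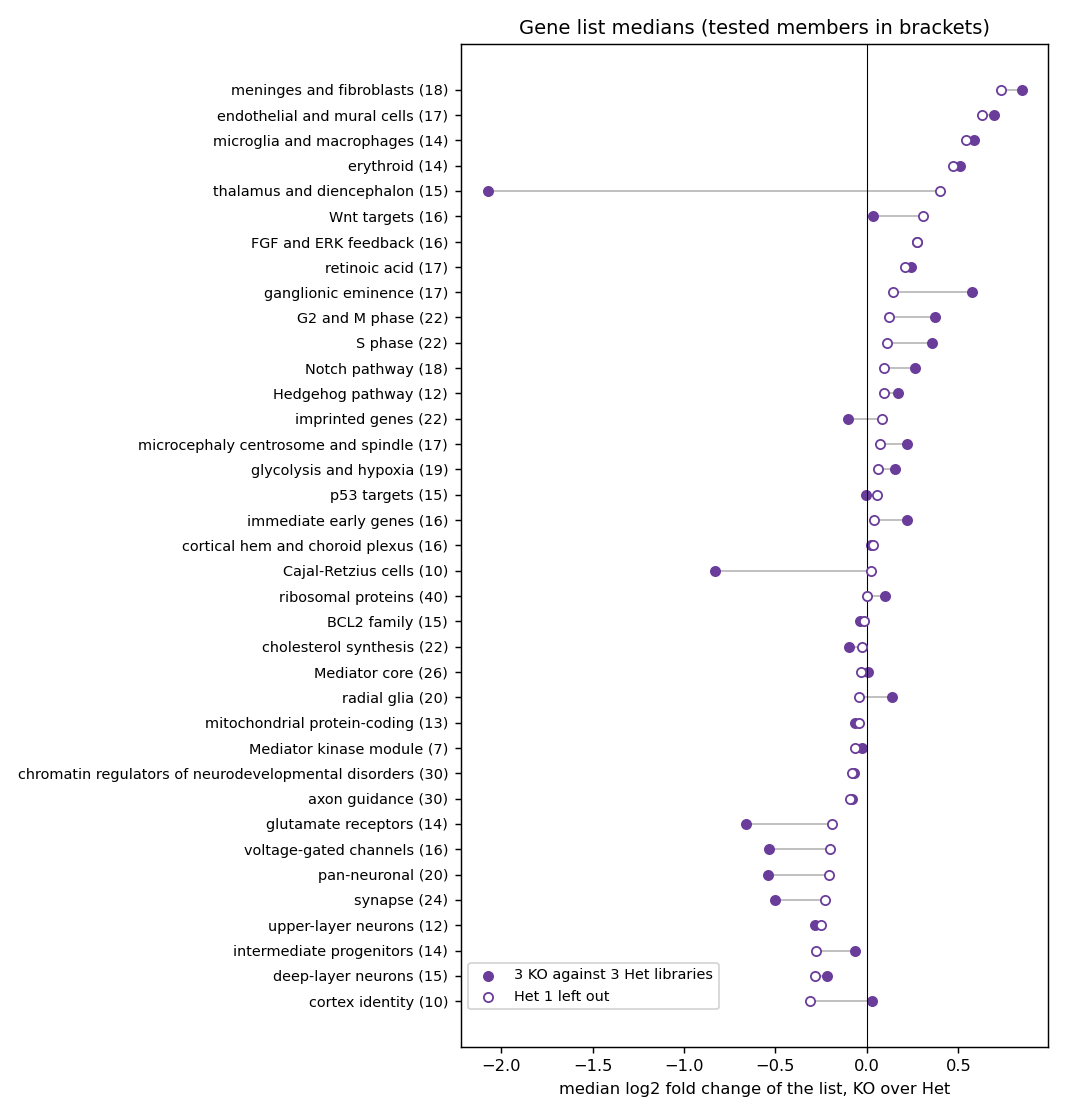
Median log2 fold change, KO over Het, of the tested members of 37 gene lists, with all 3 Het libraries (filled) and with Het 1 left out (open), beside -0.01 for all tested genes in both. The 4 lists of cells outside the neural lineage stay between 0.47 and 0.85 in either setting, and the thalamus and diencephalon list has a median of -2.07 with Het 1 and 0.40 without it.

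The share of genes with an unadjusted p under 0.05 also varied with expression level and gene type. It was 4.92% of 3533 genes under 1 CPM, 9.73% of 4698 genes from 1 to 10 CPM, 8.47% of 7994 genes from 10 to 100 CPM and 5.77% of 2619 genes above. Protein-coding genes reached 8.82% of 15032, long intergenic RNAs 5.42% of 627 and processed pseudogenes 1.32% of 1137. By chromosome it ran from 4.95% on chromosome 12 to 9.39% on chromosome 10 among the autosomes, with 7.62% on chromosome 5 and 7.99% on the X chromosome. The chromosome of Med13l was thus close to the 7.74% of all tested genes.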

How the data were processed

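Total RNA of E13.5 cortex was sequenced in bulk. The deposited table holds the authors' whole-number read counts per Ensembl gene, not normalised, for 9 libraries. Tools listed in the submitters' processing notes include StringTie 2.2.1, STAR 25.2b and FastQC 0.11.9, with build mm10. Which tool counted the reads, whether strand was used and how reads with several matches were counted are not given in the sources used here, so counts of overlapping, antisense and near-identical genes are uncertain. The single-cell samples were not analysed here. Positions come from GENCODE M21 on GRCm38, which paired 55154 of 55335 IDs with a symbol.

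The test was that of edgeR 4.0.16, run under R 4.3.3 (TMM factors, filterByExpr by genotype, robust quasi-likelihood F test, two-sided). All 9 libraries shared 1 fit of 3 genotypes, and KO against Het was the contrast. P-values were adjusted by Benjamini-Hochberg over 18844 genes, which held 99.95% of the counts. Called means an adjusted p under 0.05. The biological coefficient of variation was 28.2%. SE was derived from the F statistic. CPM use TMM-scaled library sizes, and log2 CPM a prior count of 2. The step was tested on simulated data. An exact permutation test of 3 against 3 cannot go below p = 0.1 and was not used.

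The members, the 38 gene lists and the tests were chosen with earlier results of these data known. Named were all called genes, Med13l, the 12 higher and 12 lower genes with the smallest unadjusted p at a mean of 1 CPM or more (sex-linked genes left out), the 2 such members of each list, the 3 such genes within 10 Mb of Med13l and up to 10 genes called without Het 1, of which there were none. Other genes were named after their values were seen, as examples of a list. Lists are described by counts and medians. A median within a letter or a sex is over log2 CPM differences. Alternatives were RLE and upper-quartile factors, other filters, DESeq2 1.42.0, limma 3.58.1 voom with and without quality weights, the KO and Het libraries alone, blocks for replicate number or letter, embryo sex, an adjusted p under 0.1 and leaving out each library. Fits without Het 1 and KO 1, and of the KO and Het libraries without Het 1, were added after seeing the data. Results for some genes that these rules choose are not reported here.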

Additional observations from a re-analysis of the deposited data

Results flagged for a closer look

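For 14 of the named genes and lists, every KO library lay above every Het library in one subset of the libraries and below every Het library in the other. There were 96 named genes and 38 lists in all. The share of all tested genes with this pattern was not computed, so the 14 cannot be called more than such small subsets would give. Values whose mean difference changed sign while libraries overlapped within a subset are left out. Each subset holds at most 2 libraries of a genotype, in letter F and among some sexes 1, and none of these differences was tested. Split by the letter in the sample descriptions, the difference in log2 CPM was 0.989 in letter D and -0.0383 in letter F for the imprinted gene H19. It was 0.67 and -0.0144 for the Hedgehog target Gli1, 0.692 and -0.00092 for the mitotic kinase gene Plk1, and 1.31 and -0.196 for Sp8, a transcription factor of the forebrain. The mean log2 CPM of the retinoic acid list differed by 0.57 in letter D and by -0.264 in letter F.

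Split by embryo sex, the difference was -0.201 among males and 0.255 among females for the cortical factor Lhx2, and -0.136 and 0.117 for Med13l. On the same order, the mean log2 CPM of lists differed by -0.531 and 0.693 for cortex identity, -0.0829 and 0.229 for radial glia and -0.49 and 0.337 for intermediate progenitors. The differences were 1.3 and -2.44 for thalamus and diencephalon, 0.601 and -0.442 for Wnt targets, 0.37 and -0.224 for imprinted genes and -0.226 and 2.38 for the sex-linked list. The female Het libraries include Het 1, in which Tbr1 was lowest and Tcf7l2 highest; its part in these differences was not tested.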

How the results depend on the processing

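Over 23 other settings, 23 of 2109 log2 fold changes of the 96 named genes changed sign. All named genes but Gm15446 were above the threshold in the main fit, so that their staying above it says nothing about stability. The count of called genes, 1 in the main fit, was 22 with DESeq2. It was 0 with the KO and Het libraries only, with the letter as a block, with embryo sex, with limma-voom with or without quality weights, and without Het 1 and KO 1. Leaving out single libraries gave 0 to 1. With RLE or upper-quartile factors, other filters or an adjusted p under 0.1 it was 1. In the KO and Het libraries without Het 1 it was also 1, the processed pseudogene Gm9855 in place of Gm15446, named after its values were seen. The count at an unadjusted p under 0.05, 1459 in the main fit, was 940 with the KO and Het libraries only, 828 with embryo sex, 639 in those libraries without Het 1, 428 without Het 1 and KO 1 and from 510 to 2903 when single libraries were left out. It was lowest without KO 1 and highest without Het 2. Of the genes at that threshold 62.4% were higher in KO, but 75.4% with the replicate block or with the KO and Het libraries only, 51.3% without KO 2, 51.4% without Het 3 and 43.1% without Het 2.

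With the replicate block, 0 genes were called and 1155 had an unadjusted p under 0.05. Same-numbered KO and Het libraries deviated from their group means with correlations of -0.27, -0.102 and 0.269, so the numbers were not taken to pair the samples.

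Log2 fold changes of 11 named genes changed sign under some setting. When single libraries were left out, Med13l ran from -0.098 to 0.055, Pou4f1 from -6.552 to 0.195, Irx5 from -4.678 to 0.336, Nkx2-1 from -0.338 to 4.247, Emx1 from -0.002 to 0.754, Lhx2 from -0.045 to 0.364 and Med13 from -0.163 to 0.013. Without Het 1 and KO 1, Med13l was at 0.008, Pou4f1 at 0.343, Irx5 at 0.595, Nefl at 0.176, Med16 at 0.016, Rpl8 at -0.051, Rps4x at -0.086, Emx1 at -0.14 and Lhx2 at -0.182. In the KO and Het libraries without Het 1, Pou4f1 was at 0.198, Irx5 at 0.338 and Lhx2 at -0.039. Med13l was at 0.001 with embryo sex, and Irx5 at 0.085 with quality weights. The cause was not tested. Of 836 list medians under other settings, 33 in 12 lists moved by more than the spread between replicates.

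With 3 libraries a side, the median SE of a log2 fold change was 0.212, and differences of that size could not be called over 18844 genes. Gm15446 rests on 22 to 63 counts in the KO libraries, so the sampling of reads limits how precisely its low level is known.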
